A study of Homo sapiens with 12 samples.

Results

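The mitochondrial ribosomal proteins were taken from the deposited gene table as every row whose gene name is MRPL or MRPS followed by a number and, in some cases, a letter from A to C. This gave 78 genes of 57500 in the table, 49 named for the large subunit and 29 named for the small subunit. The rule uses gene names alone. All 78 passed the filter on low counts, which left 16251 genes for testing. The study sequenced RNA of MRC5 cells, which are human embryonic lung fibroblasts, in 4 groups of 3 libraries. Prol were proliferating cells. Sen(IR) were cells made senescent with a 20 Gy dose of X-rays, harvested 10 to 12 days afterwards. Sen(IR)+UK5099 were irradiated cells kept in 100 µM UK5099, an inhibitor of the mitochondrial pyruvate carrier, and Sen(IR)+CTPI2 were irradiated cells kept in CTPI2, an inhibitor of the mitochondrial citrate carrier SLC25A1. Both inhibitors were started 1 day after irradiation and kept for 12 days. The study used CTPI2 at 15 and 30 µM, and the dose of the sequenced libraries is not given in the sources used here. All 4 groups are MRC5 cells, so the 3 libraries of a group are repeats of the same cells. The sample labels do not say that they came from separate cultures. The study's legends describe 3 independent experiments for the CTPI2 expression heatmaps and 3 independent conditions for the RNA-seq shown with UK5099. The p-values therefore measure the spread between these repeats of MRC5 cells.

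The mitochondrial ribosome is the translation machine of the mitochondrial matrix. It makes the few proteins that the mitochondrial genome still encodes, all of them core parts of the respiratory chain and the ATP synthase. Its ribosomal RNAs are transcribed inside the organelle, whereas all of its proteins are nuclear gene products that are made in the cytosol and imported. Many of these proteins descend from bacterial ribosomal proteins, and others were added during the evolution of mitochondria. Only the mRNAs of the proteins are described below, and the ribosomal RNAs were not analysed here.

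The libraries held 20597736 to 28245693 counts, so 3 counts corresponded to 0.111 to 0.147 CPM (counts per 1000000 counts of the scaled library), and the 78 genes together took 0.182% to 0.315% of each library. The 9 fibroblast markers, collagens and PDGF receptors among them, had group means of 151 to 7310 CPM, and the 9 markers of epithelial, endothelial, blood, muscle and neural cells had group means of at most 1.68 CPM, with KRT5 at 0 in 3 of the 4 groups. Replicate libraries of a group correlated at 0.996 to 0.9972 across genes on the log2 CPM scale. Prol replicate 3 stood somewhat apart for these genes, with the highest of the 3 Prol values in 63 of 78. The call counts, the subunit medians and the genes named by rule were recomputed without it, and the other results were not. A CPM is a share of a library, so less mRNA of a gene per cell and more RNA from other genes cannot be told apart, and neither can fewer cells expressing it and less expression per cell.

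The first comparison asked which of these mRNAs differ between senescent and proliferating fibroblasts. None of the 78 was higher in Sen(IR) and 61 were lower at an adjusted p under 0.05, which is 78.2% of them, beside 34.5% of all genes tested that were lower and 34.1% that were higher. With the further requirement of an absolute log2 fold change over 0.5, 36 of the 78 were lower and none higher, against 22.4% and 24.8% of all genes. The fall reached both subunits. Of the large-subunit genes 36 of 49 were lower, with a median log2 fold change of -0.45 over all 49, and of the small-subunit genes 25 of 29 were lower, with a median of -0.46 over all 29. The median over all genes tested was 0.01. By place in the ribosome, where MRPS30 and MRPS18A belong to the large subunit, 37 of 51 and 23 of 26 were lower. MRPS36 was left out of this count by place but is kept among the 78 everywhere else, except in the grouping by origin below. The Prol and Sen(IR) libraries did not overlap for 63 of the 78, against 70.9% of all genes. Without Prol replicate 3 the lower calls numbered 54, 30 of them past the fold limit, and the medians were -0.44 and -0.39.

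**Figure D1:**
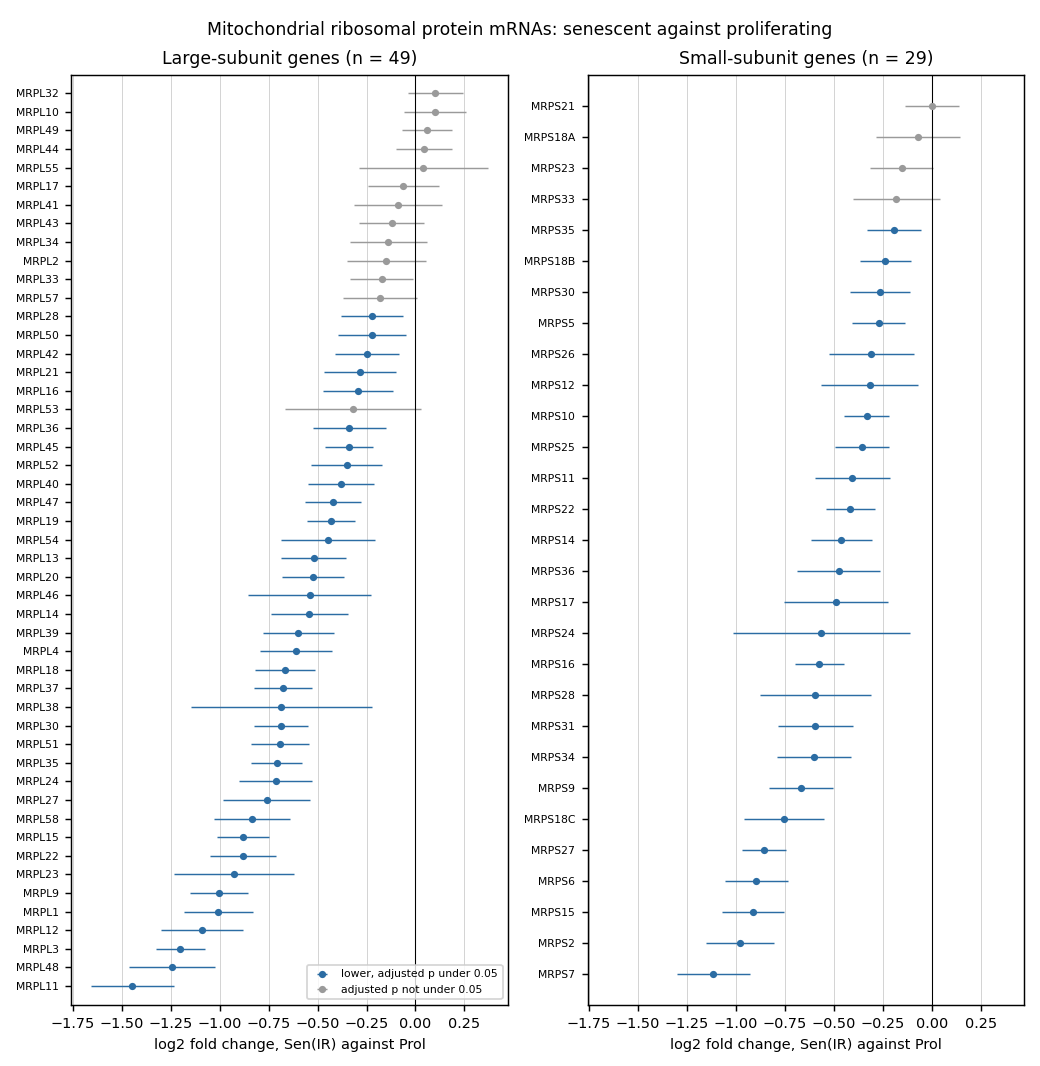
Log2 fold change of each mitochondrial ribosomal protein mRNA in Sen(IR) against Prol, with 95% intervals from the fit of 3 libraries per group; large-subunit genes are on the left and small-subunit genes on the right, and blue marks an adjusted p under 0.05. All 61 blue points lie below 0, from MRPL11 at -1.45 up to MRPS35 at -0.19, and the 17 grey points lie between -0.32 and 0.10.

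The size of the fall differed among the genes by more than the error of a single estimate. The 78 log2 fold changes had an SD of 0.342, whereas the median standard error of one of them was 0.083. Most of the steepest falls were in large-subunit proteins with a bacterial counterpart. MRPL11, the protein at the base of the stalk where translation factors bind, stood at 29.2, 29.5 and 33.3 CPM in Prol and at 11.2, 10.9 and 11.7 CPM in Sen(IR). This was a log2 fold change of -1.45 (SE 0.10, adjusted p = 2.18e-11), the lowest of the 78. MRPL48, a mitochondria-specific protein, fell from a mean of 19.8 to 8.37 CPM (log2 fold change -1.24, SE 0.11, adjusted p = 5.55e-10). MRPL3, a core protein of the large subunit, stood at 141, 145 and 167 CPM in Prol, against 64.9, 67.8 and 64.6 CPM in Sen(IR), a log2 fold change of -1.20 (SE 0.060, adjusted p = 4.96e-14). MRPS7, which sits in the head of the small subunit, had 59.4, 56.5 and 65.9 CPM in Prol and 25.4, 28.0 and 30.6 CPM in Sen(IR) (log2 fold change -1.12, SE 0.090, adjusted p = 1.99e-10). For these genes every Sen(IR) library was below every Prol library. MRPL12 (-1.09, SE 0.10) and MRPL1, the protein of the stalk through which spent tRNA leaves (-1.01, SE 0.084), completed the 6 largest falls, and MRPL9 was just behind them at -1.001.

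MRPL11 and MRPL1 lie on chromosomes 11 and 4 (GRCh38, chr11:66435075-66466738 on the minus strand and chr4:77862830-77952785 on the plus strand). The 150 bases just before their RefSeq transcription starts are shown because these 2, of the 6 genes that fell most, have a start whose upstream stretch overlaps no annotated exon. The stretch of MRPL11 lies inside the annotated gene, which also has a start farther upstream. The positions are chr11:66438849-66438998 and chr4:77862680-77862829, written 5′ to 3′ on the gene's strand (RefSeq, GRCh38.p14), with capitals marking the GC box searched for below.
MRPL11: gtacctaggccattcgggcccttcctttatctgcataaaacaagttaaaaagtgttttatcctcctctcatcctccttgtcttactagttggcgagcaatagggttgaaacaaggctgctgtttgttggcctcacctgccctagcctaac
MRPL1: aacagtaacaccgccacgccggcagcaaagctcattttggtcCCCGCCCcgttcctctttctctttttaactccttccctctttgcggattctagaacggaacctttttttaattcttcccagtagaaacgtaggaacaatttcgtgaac

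The stalk that recruits translation factors did not move as a unit. Its base MRPL11 and its repeated tip protein MRPL12 both fell, and MRPL12 went from 23.7, 28.6 and 30.8 CPM to 13.3, 14.0 and 11.7 CPM. MRPL10, which anchors MRPL12 to the ribosome, was at 23.0, 27.8 and 27.0 CPM in Prol and at 29.6, 26.8 and 27.1 CPM in Sen(IR). These values overlapped, and the fitted log2 fold change was 0.10 (95% interval -0.06 to 0.26, adjusted p = 0.253). The 95% interval of MRPL12, -1.30 to -0.88, lay wholly below that of MRPL10. MRPL12 shares 69.5% of its exon bases with a second annotated gene on the same strand, which was listed at 0 counts in every library. Reads on the shared bases were not separated here, so some could be missing from the MRPL12 counts.

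Other functional parts fell by unequal amounts. MRPL58, the peptidyl-tRNA hydrolase that rescues stalled ribosomes, fell by 0.84 on the log2 scale (24.4 to 13.7 CPM, adjusted p = 4.96e-08). MRPS27, a pentatricopeptide-repeat protein of the small subunit, fell by 0.86 (83.5 to 46.1 CPM, adjusted p = 3.75e-12). MRPL45, which holds the ribosome to the inner membrane, fell by 0.34 (42.8 to 33.8 CPM, adjusted p = 2.51e-05). MRPS12, the protein of the decoding centre, fell by 0.32 (11.8 to 9.45 CPM, adjusted p = 0.0222), and its adjusted p was 0.132 without Prol replicate 3 and 0.0853 without Sen(IR) replicate 2. MRPS30, which sits in the large subunit despite its name, fell by 0.27 (34.9 to 29.1 CPM, adjusted p = 0.00293). No change was called for MRPL44, which carries an RNase III fold (log2 fold change 0.04, adjusted p = 0.588), or for MRPL41 (-0.09, adjusted p = 0.471).

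The 3 paralogs of bacterial S18 had different values. MRPS18B and MRPS18C belong to the small subunit. MRPS18C fell from 19.7, 21.5 and 23.4 CPM to 12.7, 12.5 and 13.1 CPM (log2 fold change -0.76, 95% interval -0.96 to -0.55). MRPS18B fell by 0.24 (95% interval -0.37 to -0.11). MRPS18A, which occupies a site in the large subunit, was at 13.6, 15.7 and 16.4 CPM in Prol and at 14.89, 15.01 and 13.67 CPM in Sen(IR), an overlap of the groups with a log2 fold change of -0.07 (95% interval -0.28 to 0.14). The intervals of MRPS18B and MRPS18C did not overlap each other. MRPS18A shares 50.9% and MRPS18C 40.2% of exon bases with a gene on the other strand, and the strand setting of the counting is not given in the sources used here.

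The 17 genes that were not called comprised 13 of the large subunit (MRPL2, MRPL10, MRPL17, MRPL32, MRPL33, MRPL34, MRPL41, MRPL43, MRPL44, MRPL49, MRPL53, MRPL55 and MRPL57) and 4 of the small subunit (MRPS18A, MRPS21, MRPS23 and MRPS33). MRPS21 had the same mean in both groups, 49.7 CPM. MRPL32, which is matured by a protease of the inner membrane, had the highest fitted value of the 78, 0.10 (95% interval -0.04 to 0.24). For 28 of the 78 genes the whole 95% interval lay within 0.5 of 0. Under upper-quartile scaling the median of all genes moved to 0.135, and 49 genes were lower and 4 higher: MRPL10, MRPL32, MRPL44 and MRPL49, whose values there lay 0.03 to 0.09 above that median. MRPS12, MRPS30 and MRPS18B were not called under that scaling, where 57.9% of all calls were higher in place of 49.7%.

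Members with a bacterial counterpart and members added in mitochondria were both affected. Of the 45 with a bacterial counterpart 37 were lower, with a median log2 fold change of -0.54, and of the 31 mitochondria-specific ones 22 were lower, with a median of -0.34. Of the paralogs of bacterial S18, MRPS18C was counted with the 45, and MRPS18A and MRPS18B were counted with the 31. MRPS28 and MRPS36 were placed in neither group. The difference between these medians was not tested. RefSeq lists MRPS36 as KGD4, a component of the 2-oxoglutarate dehydrogenase complex, and it fell by 0.48 (adjusted p = 0.000274).

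Summed over the genes, the large-subunit mRNAs stood at 1783, 1793 and 2008 CPM in Prol and at 1299, 1282 and 1325 CPM in Sen(IR). The small-subunit mRNAs stood at 1058, 1049 and 1144 CPM in Prol and at 780, 781 and 789 CPM in Sen(IR). Over both subunits the Sen(IR) mean was 70.8% of the Prol mean, 2085 ± 26.5 against 2945 ± 180 CPM (SD, n = 3). The sums of the 3 Sen(IR) libraries lay closer together than those of the 3 Prol libraries, and the groups did not overlap. Prol replicate 3 had the highest sum for both subunits, and the means were not recomputed without it. The ratio of the large-subunit sum to the small-subunit sum was 1.69 to 1.75 in Prol and 1.64 to 1.68 in Sen(IR).

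**Figure D2:**
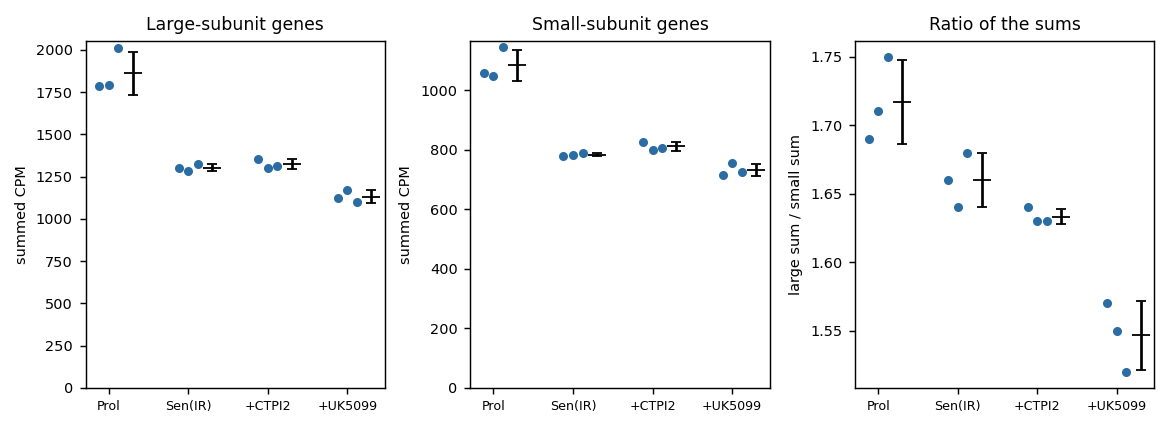
Summed CPM of the 49 large-subunit genes (left, axis from 0), of the 29 small-subunit genes (middle, axis from 0) and the ratio of the sums (right, axis not from 0) in each of the 12 libraries; points are libraries, and the bar beside them is the mean with its SD (n = 3). Both sums are highest in Prol and lowest with UK5099, and the ratio is 1.52 to 1.57 with UK5099 against 1.63 or more in all other libraries.

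Related gene lists follow for Sen(IR) against Prol, where 34.5% of all genes tested were lower and 34.1% higher. Another 5 subunits carry other names and were not among the 78. DAP3, a GTP-binding protein of the small subunit, rose from a mean of 106 to 125 CPM (log2 fold change 0.24, SE 0.053, adjusted p = 0.000432). CHCHD1 (-0.72), GADD45GIP1 (-0.66), AURKAIP1 (-0.50) and PTCD3 (-0.46) fell. Among 28 factors that assemble the ribosome or modify its RNA, 18 were lower and 1 was higher, with GTPBP6 (26.6 to 11.9 CPM) and C1QBP (142 to 69.5 CPM) falling most and MPV17L2 (9.31 to 13.2 CPM) higher. Of 15 translation factors of the organelle 12 were lower and none higher, led by GUF1 (-0.90) and TACO1 (-0.85). Of 21 genes for mitochondrial aminoacyl-tRNA synthesis 15 were lower and 2 higher. NARS2, the asparaginyl-tRNA synthetase, fell from 23.7 to 11.8 CPM, and RARS2, the arginyl-tRNA synthetase, rose from 89.5 to 116 CPM.

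The same comparison for neighbouring systems gave different counts, beside 34.5% of all genes tested that were lower and 34.1% that were higher. Of 79 tested cytosolic ribosomal protein genes 72 were lower and 1 higher, with a median of -0.51. Of 79 nuclear genes of the respiratory chain and ATP synthase 37 were lower and 12 higher, with a median of -0.16. Protein import by the TOM and TIM complexes had 15 of 21 lower and 3 higher, among them TIMM10 at -1.29 and TOMM7 at 0.84. Of 11 genes that copy and transcribe mitochondrial DNA 8 were lower and none higher, with TWNK, the mitochondrial DNA helicase, at -1.07 and TFAM, which packages that DNA, at -0.73. Among 9 regulators of mitochondrial biogenesis 4 were lower and 1 higher. The transcription factor NRF1 fell from 16.5 to 8.56 CPM, PPRC1 from 63.5 to 34.1 CPM and MYC from 42.6 to 23.7 CPM. PPARGC1A was higher at 1.63 against 1.00 CPM, with libraries that overlapped. The 13 mRNAs that the ribosome translates, encoded in the mitochondrial genome, had 7 higher and 1 lower, with a median of 0.22. MKI67, a marker of cycling cells, dropped from a mean of 235 to 11 CPM in the same comparison, and its part in these changes was not tested.

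**Figure D3:**
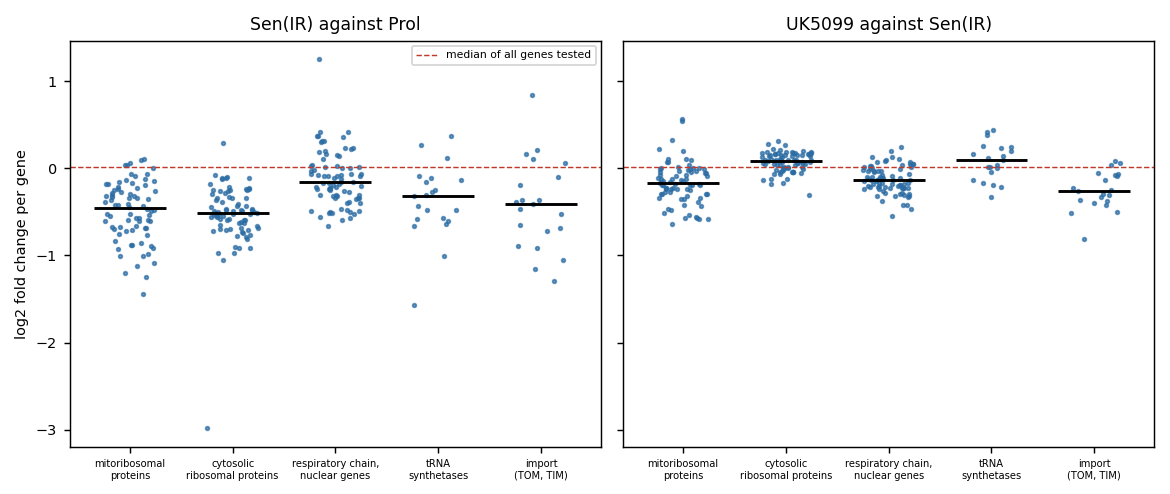
Log2 fold change of every tested gene (points) in 5 gene groups, with the median of each group (black bar) and of all genes tested (dashed line), for Sen(IR) against Prol on the left and UK5099 against Sen(IR) on the right. The medians of the mitochondrial ribosomal proteins are -0.45 and -0.17, and those of the cytosolic ribosomal proteins are -0.51 and 0.08.

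The second comparison asked what UK5099 changes in senescent cells. The mitochondrial ribosomal protein mRNAs were more often lower than higher, 31 of 78 against 4, beside 23.5% of all genes lower and 21.9% higher. With the fold limit 7 were lower and 1 higher, against 12.1% and 8.76% of all genes. The UK5099 and Sen(IR) libraries did not overlap for 47 of the 78, against 56.6% of all genes. The subunits gave unlike counts: 21 of 49 large-subunit genes were lower and none higher, and 10 of 29 small-subunit genes were lower and 4 higher. The large-subunit MRPL38, at 0.54, narrowly missed a call (adjusted p = 0.0545). It was called higher under upper-quartile scaling (adjusted p = 0.0454) and with unscaled library totals (adjusted p = 0.0264). MRPL45, also of the large subunit, was called higher with unscaled totals (adjusted p = 0.025). The medians over all members were nevertheless alike, -0.18 and -0.17, and the difference in counts was not tested. Without any scaling of the library totals 20 members were lower and 7 higher, and 62.1% of all genes called in either direction were higher in place of 48.2%.

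The 6 largest falls with UK5099 were all in the large subunit. MRPL36, a protein with a bacterial counterpart, stood at 19.6, 20.2 and 20.7 CPM in Sen(IR). Under UK5099 it was at 13.2, 13.0 and 12.6 CPM, a log2 fold change of -0.64 (SE 0.095, adjusted p = 8.73e-06). MRPL17 stood at 40.7, 43.6 and 45.1 CPM without the inhibitor and at 30.8, 29.9 and 25.6 CPM with it (log2 fold change -0.58, SE 0.090, adjusted p = 1.42e-05). MRPL28 went from 34.8, 30.5 and 30.4 CPM to 21.1, 23.3 and 19.6 CPM (log2 fold change -0.58, SE 0.079, adjusted p = 2.78e-06). In these genes all UK5099 libraries were below all Sen(IR) libraries. MRPL12 fell by 0.57, the mitochondria-specific MRPL54 by 0.57 and MRPL47 by 0.56. MRPL47 shares 9.01% of its exon bases with ACTL6A on the other strand. Some genes with no called difference between Sen(IR) and Prol were lower with UK5099. For MRPL17 the values were -0.06 (95% interval -0.24 to 0.12) in Sen(IR) against Prol and -0.58 with UK5099, for MRPL44 0.04 and -0.30, and for MRPS21 0.00 and -0.29. The Sen(IR) libraries enter both comparisons.

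All 4 genes called higher with UK5099 under the main scaling are named for the small subunit. MRPS6 stood at 21.3, 24.5 and 23.7 CPM in Sen(IR) and at 33.3, 35.2 and 34.0 CPM with UK5099, with no overlap of the groups (log2 fold change 0.56, SE 0.079, adjusted p = 4.25e-06). MRPS31 went from 11.6, 10.8 and 12.1 CPM to 15.3, 13.2 and 14.7 CPM (0.32, SE 0.093, adjusted p = 0.00713). MRPS14 had means of 20.9 and 24.3 CPM (0.22, adjusted p = 0.0216), and its adjusted p was 0.0813 without Sen(IR) replicate 1, 0.0688 without UK5099 replicate 1 and 0.0539 without UK5099 replicate 2. MRPS27 had means of 46.1 and 53.0 CPM (0.20, adjusted p = 0.00494). In Sen(IR) against Prol, which uses the same Sen(IR) libraries, the log2 fold changes of the 4 were -0.90, -0.60, -0.46 and -0.86. Their Prol means of 43.1, 17.4, 28.7 and 83.5 CPM were above the UK5099 means, which were 34.2, 14.4, 24.3 and 53.0 CPM. The direction of these 4 was the same under all 4 scalings tried.

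MRPS6 lies on chr21:34073224-34143034 on the plus strand, and SLC5A3, which encodes a myo-inositol transporter, is annotated on the same strand with exon bases in common, 9.48% of those of MRPS6. SLC5A3 rose with UK5099 by nearly the same amount, from 34.0 to 53.5 CPM (log2 fold change 0.65, adjusted p = 1.76e-06). Between Prol and Sen(IR) the pair differed more, with MRPS6 at -0.90 and SLC5A3 at -0.30. Reads on the shared bases were not separated here. For MRPS31 the table holds 4 pseudogene rows and for MRPS6 it holds 2, so reads that fit more than one copy could be missing from these counts.

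The upstream stretches of the strongest movers with UK5099 are shown in the same way as above, again only where no annotated exon lies in them. Capitals mark the letters of the motifs GCATGCG (the core of the NRF1 site), CCGGAAG (ETS factors), AAGATGG (YY1), CACGTG (the E-box) and GGGCGGG (the GC box), searched on both strands. The stretches are chr11:6683341-6683490, chr16:370539-370688, chr19:3762532-3762681, chr13:40771191-40771340 and chr1:175023426-175023575 (GRCh38.p14), on the plus strand for MRPL54 and on the minus strand for the others. The first 3 genes fell and the last 2 rose.
MRPL17: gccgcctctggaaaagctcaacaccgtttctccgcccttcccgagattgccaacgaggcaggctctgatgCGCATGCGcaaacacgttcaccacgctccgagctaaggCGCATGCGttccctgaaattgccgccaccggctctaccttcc
MRPL28: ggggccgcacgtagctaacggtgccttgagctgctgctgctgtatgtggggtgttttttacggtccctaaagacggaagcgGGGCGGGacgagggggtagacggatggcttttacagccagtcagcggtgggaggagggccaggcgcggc
MRPL54: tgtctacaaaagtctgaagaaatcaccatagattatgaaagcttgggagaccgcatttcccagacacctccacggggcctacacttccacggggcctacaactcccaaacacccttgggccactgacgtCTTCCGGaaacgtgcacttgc
MRPS31: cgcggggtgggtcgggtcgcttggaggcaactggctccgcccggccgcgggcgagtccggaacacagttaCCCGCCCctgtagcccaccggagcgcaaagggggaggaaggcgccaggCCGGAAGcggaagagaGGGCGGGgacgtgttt
MRPS14: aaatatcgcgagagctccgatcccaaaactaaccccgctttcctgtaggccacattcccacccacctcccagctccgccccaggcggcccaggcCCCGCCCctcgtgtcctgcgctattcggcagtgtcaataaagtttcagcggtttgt

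MRPL17 holds the NRF1 core on both strands at 2 places, 41 and 79 bases before the start, and none of the other stretches shown holds it. Promoters from 250 bases before to 50 bases after the start were given for 70 of the 78 genes. The ETS letters were in 41.4% of these 70 and in 14.2% of 15843 promoters of protein-coding genes, and the YY1 letters were in 32.9% and 6.40%. The NRF1 core was in 10% and 5.14%, the E-box in 10% and 8.88%, the GC box in 50% and 44.4%, and the TATA box (TATAAA) in 4.29% and 9.63%. Among genes that fell in Sen(IR) and genes that were not called the counts were 22 of 55 against 7 of 15 for the ETS letters and 20 of 55 against 3 of 15 for the YY1 letters. For UK5099 they were 14 of 29 among the genes that fell against 15 of 41 among the rest for the ETS letters and 8 of 29 against 15 of 41 for the YY1 letters. A match is a description of the letters in the window and was not tested as a binding site.

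**Figure D4:**
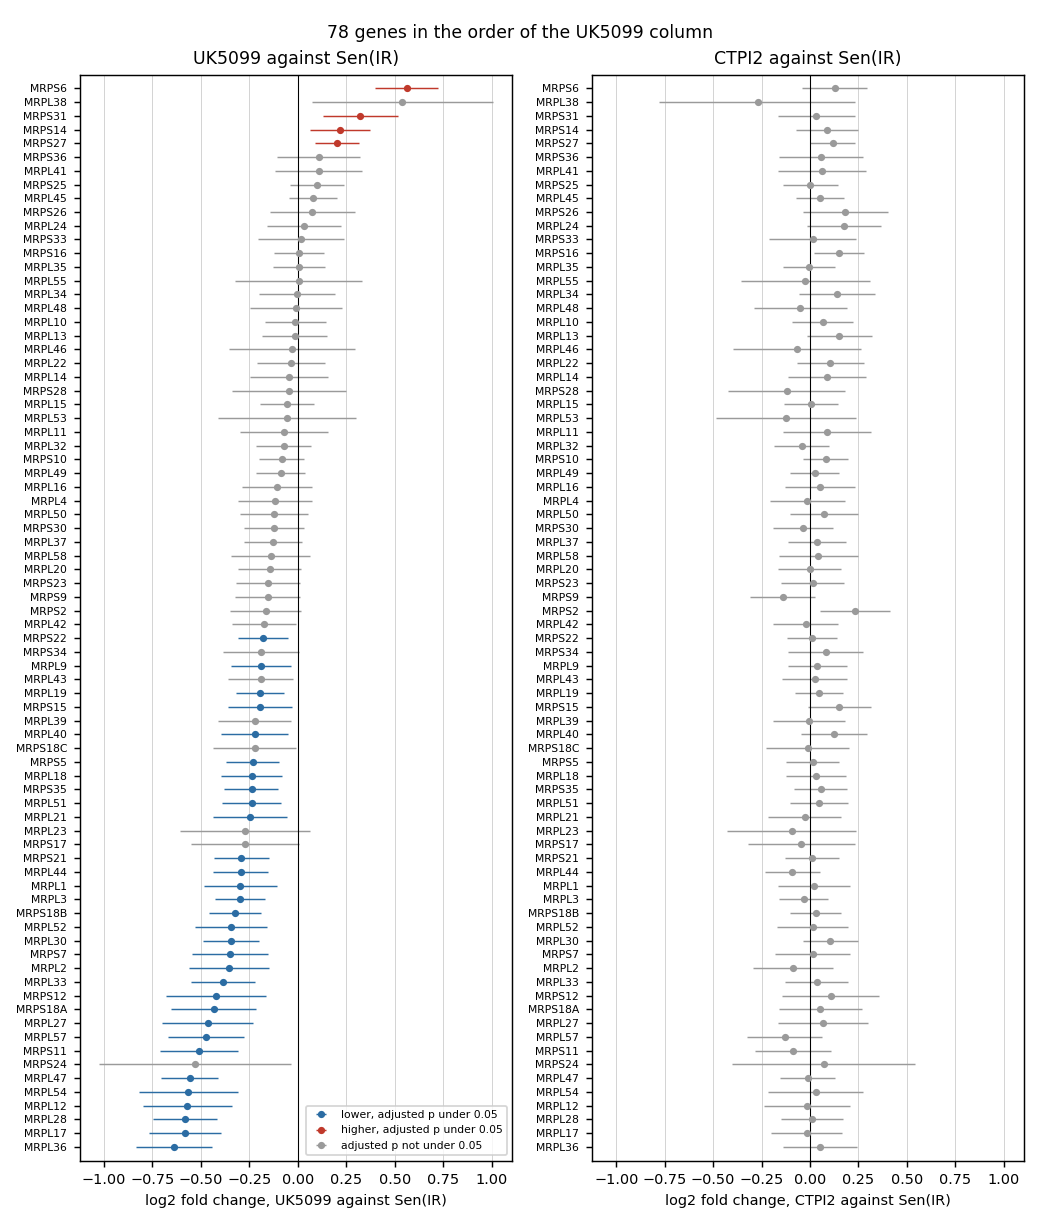
Log2 fold change with 95% interval for each of the 78 genes against Sen(IR), for UK5099 on the left and CTPI2 on the right, in the order of the UK5099 values; blue and red mark an adjusted p under 0.05. The UK5099 column runs from MRPL36 at -0.64 to MRPS6 at 0.56 with 31 blue and 4 red points, and the CTPI2 column has no coloured point and runs from -0.27 to 0.23.

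Partner systems of the ribosome are given next for UK5099 against Sen(IR), where 23.5% of all genes were lower and 21.9% higher. Differences between these lists were not tested. The 5 subunits with other names had 4 lower, among them DAP3 (125 to 105 CPM), AURKAIP1 (24.0 to 19.4 CPM) and GADD45GIP1 (17.2 to 14.2 CPM). Of 28 assembly factors 5 were lower and 4 higher, with a median of 0.02, and C1QBP fell from 69.5 to 51.6 CPM. Of 15 translation factors 3 were lower and 2 higher. In the genes for aminoacyl-tRNA synthesis 6 of 21 were higher and 1 lower, led by VARS2 (12.4 to 16.9 CPM) and NARS2 (11.8 to 15.7 CPM). TOM and TIM genes had 10 of 21 lower and none higher, with TOMM40, the import pore, falling from 34.5 to 19.7 CPM. In the nuclear respiratory chain list 28 of 79 were lower and 2 higher, whereas in the cytosolic ribosomal protein list 21 of 79 were higher and 2 lower. Of the biogenesis regulators 4 of 9 were lower, with PPARGC1A going from 1.63 to 0.663 CPM and MYC from 23.7 to 17.0 CPM, and GABPA, a subunit of an ETS factor, was higher at 54.2 against 45.1 CPM. TWNK (-0.55), TFB2M (-0.35) and SSBP1 (-0.33) were lower among the 11 genes for mitochondrial DNA, and none was higher.

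The mRNAs of the mitochondrial genome were mostly higher with UK5099, 9 of 13, with 2 lower. MT-ND6 went from a mean of 828 to 2300 CPM (log2 fold change 1.47), MT-ND5 from 2140 to 4460 CPM (1.06) and MT-CO2 from 2050 to 3370 CPM (0.72), whereas MT-CO3 fell from 2690 to 1690 CPM (-0.67). These genes lie next to each other or on opposite strands of a compact genome, and without a stated strand setting their reads could be mixed. Beside these changes, 6 of 9 fibroblast markers were lower with UK5099, COL1A1 at 1600 against 4710 CPM among them, and the residual levels of MKI67 (0.949 against 11 CPM) and LMNB1 (2.51 against 8.24 CPM) were lower too. Their part in the changes of the ribosomal genes was not tested.

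For CTPI2 against Sen(IR), edgeR called none of the 78 genes, where 0.486% of all genes were called, and DESeq2 called none either. At an unadjusted p under 0.05 there were 3 of 78, all of them small-subunit genes and all higher, against 7.27% of all genes. The 3 genes were MRPS2 (0.23, 95% interval 0.05 to 0.41), MRPS16 (0.15, 0.02 to 0.28) and MRPS27 (0.12, 0.00 to 0.23), which are named here after their values were seen. Groups without overlap were found for 13 of the 78, against 15.1% of all genes. The median log2 fold change was 0.02 for the large subunit and 0.03 for the small subunit, and leaving out a library moved these to between -0.005 (without CTPI2 replicate 1) and 0.039 (without CTPI2 replicate 3) and, for the same omissions, between 0.013 and 0.063. For 76 of 78 genes the whole 95% interval lay within 0.5 of 0, and the exceptions were MRPL38 (-0.78 to 0.23) and MRPS24 (-0.40 to 0.54), which have the lowest levels per length. The log2 fold changes had an SD of 0.082 across the 78, close to the median standard error of 0.085. The summed level was 2134 ± 42.1 CPM with CTPI2 and 2085 ± 26.5 CPM without (SD, n = 3).

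The inhibitors were compared directly at the doses the study used, which differ, so the contrast is between these 2 treatments and not between the compounds at a matched dose. With UK5099 35 of 78 genes were lower than with CTPI2 and 3 were higher, against 23.4% and 21.1% of all genes, and with the fold limit 10 were called, against 19.9% of all genes. For 49 of the 78 the libraries did not overlap, against 53.6% of all genes. MRPL36 stood at 22.8, 20.5 and 19.3 CPM with CTPI2 and at 13.2, 13.0 and 12.6 CPM with UK5099 (log2 fold change -0.69, adjusted p = 3.03e-06). MRPS24 (-0.60), MRPL54 (-0.59), MRPL28 (-0.59), MRPL17 (-0.57) and MRPL12 (-0.56) followed. MRPS24 is at 1.78 to 4.16 CPM in these libraries, and its adjusted p of 0.0407 became 0.233 without CTPI2 replicate 1, 0.143 without UK5099 replicate 1 and 0.0707 without UK5099 replicate 3. It shares 23.25% of its exon bases with URGCP-MRPS24 on the same strand. MRPS6 was higher with UK5099 by 0.44 (adjusted p = 9.11e-05) and MRPS31 by 0.29 (adjusted p = 0.014), the latter at an adjusted p of 0.057 without CTPI2 replicate 3 and 0.0671 without UK5099 replicate 1. MRPS14 (0.13, adjusted p = 0.165) and MRPS27 (0.08, adjusted p = 0.227) were not called here.

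MRPL38, a protein with a fold related to phosphatidylethanolamine-binding proteins, had the highest log2 fold change between the inhibitors, 0.81 (95% interval 0.34 to 1.28, adjusted p = 0.00599). It stood at 2.63, 2.1 and 2.73 CPM with CTPI2 and at 5.34, 3.59 and 4.18 CPM with UK5099. Its Sen(IR) libraries were spread over 4.40, 2.60 and 1.91 CPM, so that they overlapped those of UK5099, and against Sen(IR) the value of 0.54 had an adjusted p of 0.0545. MRPL38 shares 45.1% of its exon bases with other annotated genes.

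**Figure D5:**
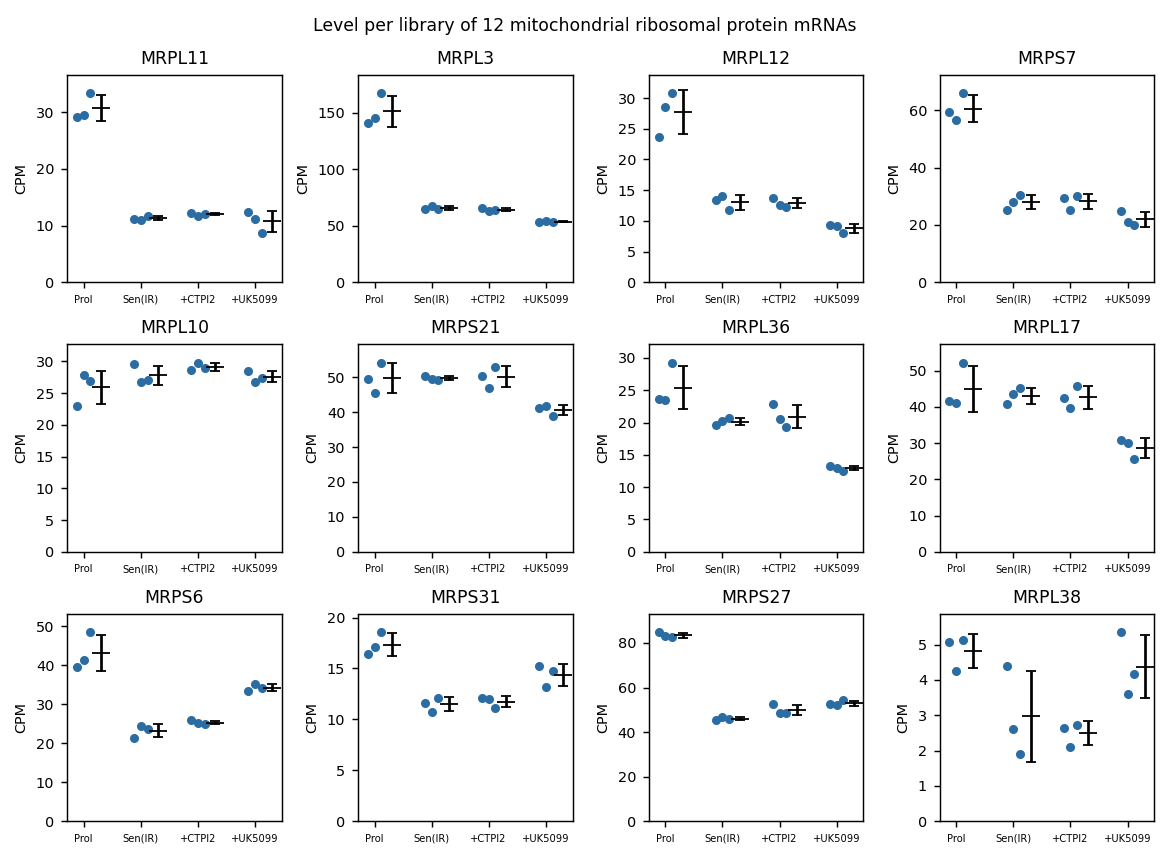
CPM (axes from 0) of 12 of the genes in each of the 12 libraries; points are libraries, and the bar beside them is the mean with its SD (n = 3). MRPL11, MRPL3, MRPL12 and MRPS7 drop from Prol to Sen(IR), MRPL10 has overlapping groups in Prol and Sen(IR), MRPL36 and MRPL17 are lowest with UK5099, and MRPS6 and MRPS31 are higher with UK5099 than in Sen(IR) but below Prol.

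Sen(IR) against Prol and UK5099 against CTPI2 share no library, so the 2 sets of calls can be set side by side. Of the 61 genes lower in Sen(IR) 27 were also lower with UK5099 than with CTPI2, which is 44.3% of the 61 and 77.1% of the 35 lower with UK5099. Of the 17 genes not called in Sen(IR) 8 were lower with UK5099, which is 47.1%, a share near that of the 61. A further 31 of the 61 were not called between the inhibitors. The 3 genes higher with UK5099 (MRPL38, MRPS6 and MRPS31) were all among the 61. Over the 78 genes the 2 sets of log2 fold changes had a Pearson correlation of -0.0685 and a Spearman correlation of -0.0345, a description of genes that were measured in the same libraries.

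Levels per length, in CPM per kb of annotated exon averaged over the 4 groups, ran from 51.1 for MRPL51 to 1.1 for MRPL38. After MRPL51 came MRPS10 (33.3), MRPL18 (33.1), MRPS35 (33.0) and MRPS21 (31.7). The order of these followed the group: MRPL18 was above MRPS10 in Prol (47.0 against 39.4) and below it in Sen(IR) (29.7 against 31.3). The lowest were MRPL23 (2.07), MRPS25 (1.43), MRPL46 (1.27), MRPS24 (1.26) and MRPL38. The length counts every annotated exon, so a gene with long, rarely used exons, such as MRPS25 with 18.31 kb, appears lower than its main transcript is.

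The 78 genes are spread over 21 chromosomes, with at most 8 on one of them, and 26 of them (33.3%) have a protein-coding gene with its start within 1000 bases on the opposite strand, compared with 16.1% of 13312 protein-coding genes tested. The 26 partners had 13 lower and 5 higher genes in Sen(IR) against Prol, beside 34.5% and 34.1% of all genes tested. Their median was -0.21, whereas the members of these pairs had a median of -0.43. With UK5099 against Sen(IR) 5 partners were lower and 3 higher, beside 23.5% and 21.9% of all genes tested. MRPL47 fell with UK5099 (-0.56) and its neighbour NDUFB5 (41 bases between the starts) had a value of 0.00, while MRPL36 fell (-0.64) next to NDUFS6 at -0.20 (adjusted p = 0.0627). One pair is made of 2 members, MRPL46 and MRPS11, whose starts are 63 bases apart on chr15:88459477-88467390 and chr15:88467453-88480776. Each of them is counted both as a member and as a partner in the counts and medians above. In Sen(IR) against Prol both fell, by 0.54 and 0.41. With UK5099 MRPS11 fell by 0.51 (adjusted p = 0.000162), from 19.9, 19.8 and 17.1 CPM to 15.1, 12.8 and 12.1 CPM, and MRPL46 was at -0.03 (95% interval -0.36 to 0.30). Exon bases shared with another annotated gene were found for 41 of the 78, rows for pseudogenes for 34, and neither for 20.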

How the data were processed

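RNA of 12 MRC5 libraries was read in pairs by a commercial provider. According to the submitters' processing notes and the study's methods, the authors trimmed reads with Trimmomatic 0.36, aligned them with STAR 2.5.2b to GRCh38 and assigned uniquely mapped reads to the exons of genes by featureCounts of Subread 1.5.2. The deposited values are raw counts per gene, not normalised. Strandedness is not given in the sources used here.

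Groups were taken from the sample titles. Genes passing filterByExpr were fitted in one model of 12 libraries with edgeR 4.0.16 (R 4.3.3), using TMM scaling, quasi-likelihood tests and Benjamini-Hochberg adjustment over all 16251 genes. Calls required an adjusted p under 0.05, with or without an absolute log2 fold change over 0.5. CPM are counts per 1000000 of the TMM-scaled library. The scripts were tested on simulated data. Positions, exon lengths and overlaps came from GENCODE release 44, in which all 78 genes were found. No pairing of the samples by replicate number was detected, as reported in the closing section, and the main model did not use the numbers.

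The members and gene lists were chosen with earlier results of these data known, and list counts and medians are descriptions without a test. Named in each comparison were the 6 highest and 6 lowest called members, members fixed by role, and the 5 highest and lowest levels per length. DESeq2 1.42.0, other scalings, filters, fold limits, pairings and omitted libraries were tried as alternatives. Precision is set by 3 libraries per group, with a replicate coefficient of variation of 6.12%.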

Additional observations from a re-analysis of the deposited data

How the results depend on the processing

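The counts of called members, the subunit medians and the fold changes of the genes named by rule were recomputed under the alternatives. The counts of members above 0 and the medians and shares of calls over all genes were recomputed under the other scalings only. The other values were not recomputed. In Sen(IR) against Prol, leaving out a library gave 54 to 64 lower members, 30 to 38 past the fold limit, and medians of -0.516 to -0.436 (large) and -0.474 to -0.394 (small). In UK5099 against Sen(IR) it gave 24 to 32 lower, 3 to 4 higher, 6 to 10 past the fold limit, and medians of -0.205 to -0.152 and -0.189 to -0.119. In UK5099 against CTPI2 it gave 27 to 40 lower, 2 to 3 higher, 6 to 11 past the fold limit (6 without UK5099 replicate 3), and medians of -0.223 to -0.167 and -0.25 to -0.137. For CTPI2 against Sen(IR) it gave 0 calls and medians of -0.005 to 0.039 and 0.013 to 0.063. Upper-quartile scaling gave 4 higher members in Sen(IR), with medians of -0.325 and -0.341. Library totals gave, for UK5099 against Sen(IR), 3 past the fold limit, 7 higher, 20 lower and medians of -0.09 and -0.08, and, against CTPI2, 5 past the fold limit, 5 higher and a small-subunit median of -0.123. At an absolute log2 fold change over 1, Sen(IR) had 7 members and UK5099 had 0 against either group. The share of all genes past this limit is not given here, so these counts cannot be set against it. At an unadjusted p under 0.05, 3 members were higher with CTPI2. Adding the 5 subunits with other names gave 1 higher in Sen(IR), which was DAP3. Over the 4 small-subunit genes with no shared exon bases and no pseudogene rows, an alternative chosen after seeing the data, the Sen(IR) median was -0.287. These 4 are fewer genes, and the cause of the other shifts was not tested.

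Among the genes named by rule, only values close to 0 changed sign. In Sen(IR) against Prol, upper-quartile scaling put MRPL41 at 0.03 and MRPS18A at 0.051. Leaving out a library gave -0.156 to 0.048 for MRPL41 and -0.004 to 0.102 for MRPL44. With UK5099 against Sen(IR), MRPL10 was at 0.007 under upper-quartile scaling and 0.074 with library totals, and MRPL11 at 0.014 with library totals. Leaving out a library gave -0.038 to 0.035 for MRPL10 (0.008 without UK5099 replicate 2) and -0.18 to 0.063 for MRPL11.

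Samples sharing a replicate number did not deviate together (correlations of -0.0145 to 0.0423), and 5 of 12 libraries were closest to their own number. With 3 libraries per group this cannot show that the numbers do not mark matched experiments. With the replicate number as a block, 61 members were lower in Sen(IR) against Prol, 30 were lower and 5 higher with UK5099 against Sen(IR), and 35 were lower and 3 higher against CTPI2. With 3 libraries per group, differences near the median standard error of 0.083 to 0.086 could not be detected. The smallest called changes were larger. They were -0.194 for MRPS35 in Sen(IR) against Prol and -0.178 for MRPS22 with UK5099 against Sen(IR). Between UK5099 and CTPI2 the smallest was -0.164 for MRPS10.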
